A study of Rattus norvegicus with 4 samples.

Results

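The chaperones and cochaperones that hold steroid receptors in a hormone-binding state were examined in cultured rat testicular peritubular myoid cells given testosterone and in control cells. The genes were Fkbp5, Fkbp4, Hsp90aa1, Hsp90ab1, Ptges3, Stip1, Hspa8, Dnaja1, Bag1 and Stub1. Probes were taken by the gene name in the scanner files, with older symbols accepted, so that Hsp90aa1 was found under Hspca and Hsp90ab1 under Hspcb. This gave 20 of the 41012 non-control probes, for 9 of the 10 genes, among 35666 distinct gene names on the array. No probe carried the name Ptges3 or an older symbol of it, so that gene was not analysed here. The rule itself uses no measured value, but the genes were chosen with earlier results of these data known.

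A steroid receptor without hormone is built up on chaperones in steps. A J-domain protein such as Dnaja1 loads the receptor onto the heat shock cognate Hspa8, the adaptor Stip1 passes it to an HSP90 dimer, and the small cochaperone encoded by Ptges3 steadies the mature complex. An immunophilin, Fkbp4 or Fkbp5, then docks on HSP90. Fkbp4 favours hormone binding and transport to the nucleus, while Fkbp5 lowers hormone affinity in many receptors and is itself induced by androgen and glucocorticoid in several tissues. Bag1 releases nucleotide from HSP70 proteins, and Stub1 is the ubiquitin ligase that marks chaperone-bound clients for degradation.

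Both groups were peritubular myoid cells, the contractile cells around the seminiferous tubule, isolated from testes of 40-day-old male rats and cultured for 4 days in DMEM/Ham's F-12 with defined growth factors. The testosterone group (n = 2 arrays) received 1e-07 M testosterone in pulses, and the control group (n = 2) is labelled only as control. The labels repeat the treatment text on the control arrays and give neither a strain nor a vehicle. Nor do they say whether arrays of a group came from separate animals or cultures, so every p-value here rests on array-to-array spread that could be technical. By its title the series is about testosterone-induced genes.

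Each level below is the log2 processed signal of a probe minus the 75th percentile of its array, so that 0 is the signal of a probe at that percentile. Levels of different probes depend on each probe's binding and were not set against each other. Between 63.5% and 68.2% of non-control spots were well above background on each array. Precision is limited by having 2 arrays per group. The 4 arrays shared 1 slide. Control replicate 1 had 67 dropped spots, meaning spots at least 3 below the lowest of the other arrays and no longer well above background, all in columns 57 to 85, against 1 on testosterone replicate 1 and 0 on each of the other 2 arrays. Of the 20 chaperone probes, 8 lay in those columns, and none had a dropped spot within 10 rows and columns. Spots that lost only part of their signal are not counted as dropped. Of 10 peritubular and smooth muscle markers, 8 had a probe, 7 of these were well above background on all arrays, and Cnn1 was so on none. Acta2 and Myh11 had no probe by name. The summed peritubular and smooth muscle level was 7.54 and 7.89 in the testosterone arrays and 7.75 and 7.93 in the control arrays. Of these markers, 1 was saturated on at least 1 array. Markers of other cells were also well above background on all arrays, with 5 of 6 Leydig, 4 of 7 Sertoli, 2 of 4 germ cell, 5 of 5 macrophage and 3 of 5 endothelial markers that had a probe. The summed macrophage level was 7.11 and 6.80 in the testosterone arrays and 7.31 and 6.84 in the control arrays. Germ cell sums were -1.23 and 2.14 with testosterone and -1.39 and 2.16 in control, far higher on replicate 2 in both groups. Sertoli sums were 3.97 and 3.36 with testosterone and 4.05 and 3.60 in control, lower on replicate 2. Leydig sums were 6.56 and 6.92 with testosterone and 6.66 and 6.72 in control. Endothelial sums were -0.57 and 0.16 with testosterone and -0.32 and 0.69 in control. The part of these cells in the chaperone signals, or in gaps between arrays of a group, was not tested.

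Regulatory letters upstream of the genes are shown first, because the members fall into those whose promoter holds a heat shock element pair and those whose promoter does not. Heat shock factor binds inverted repeats of NGAAN, and the pair was searched as TTCNNGAA or GAANNTTC, which read the same on both strands and overlap where repeats follow each other. The sequences are the 250 bases before the gene start from RefSeq, build GRCr8, in the direction of transcription. Of the 10 genes, 9 had such a sequence. Hsp90aa1 had none, so its promoter was not searched. Capitals mark the heat shock element pairs.
Fkbp5 (chr20:6543556-6543805, minus strand): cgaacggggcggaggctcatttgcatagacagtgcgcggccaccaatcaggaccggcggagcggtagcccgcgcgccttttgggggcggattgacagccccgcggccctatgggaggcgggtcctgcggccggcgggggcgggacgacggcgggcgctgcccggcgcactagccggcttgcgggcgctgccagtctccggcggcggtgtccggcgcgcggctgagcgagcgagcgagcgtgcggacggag
Fkbp4 (chr4:163397919-163398168, minus strand): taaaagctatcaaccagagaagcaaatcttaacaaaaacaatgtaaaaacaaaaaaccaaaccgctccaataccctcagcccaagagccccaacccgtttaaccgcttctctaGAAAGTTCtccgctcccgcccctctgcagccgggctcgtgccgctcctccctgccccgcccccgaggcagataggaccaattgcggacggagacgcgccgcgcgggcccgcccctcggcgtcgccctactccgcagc
Hspa8 (chr8:50080264-50080513, plus strand): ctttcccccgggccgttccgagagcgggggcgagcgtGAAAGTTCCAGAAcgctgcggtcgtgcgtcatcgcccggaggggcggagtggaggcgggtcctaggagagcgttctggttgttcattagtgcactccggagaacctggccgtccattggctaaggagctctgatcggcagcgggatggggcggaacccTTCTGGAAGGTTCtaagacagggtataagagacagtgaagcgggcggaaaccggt
Dnaja1 (chr5:60638154-60638403, plus strand): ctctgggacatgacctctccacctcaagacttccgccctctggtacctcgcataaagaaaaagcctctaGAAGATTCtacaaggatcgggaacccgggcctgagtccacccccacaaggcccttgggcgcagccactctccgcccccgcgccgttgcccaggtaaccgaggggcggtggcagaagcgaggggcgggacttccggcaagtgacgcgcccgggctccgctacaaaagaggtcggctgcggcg

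Hspa8 held runs of 3 repeats at 213 to 201 and at 55 to 43 bases before its start, each a pair extended by a further repeat at the same spacing on either side, which 0.597% of 27457 promoters held on either strand. Fkbp4, Dnaja1 and Stip1 each held 1 pair, at 137 to 130, 181 to 174 and 8 to 1 bases before the start. In all, 4 of the 9 member promoters held a pair, against 13.2% of all promoters of that length. No member promoter held TGTTCT, the core of androgen and glucocorticoid response elements, on either strand, which 17.1% of all promoters held. The full element, an inverted repeat of that core with a gap of 3 bases, was found in 1 of the 27457 and in no member. The CCAAT box was found on either strand in 6 of the 9 and in 34.3% of all promoters. A match describes the letters in this window only, and binding was not measured. The motifs and the 4 printed promoters were chosen after expression values were seen.

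**Figure D1:**
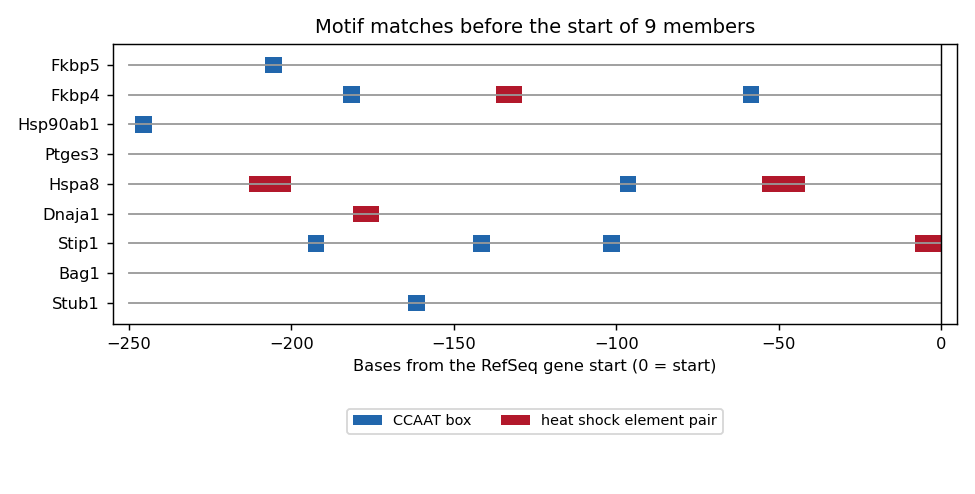
Each line is the 250 bases before the gene start of 1 of the 9 members in the promoter table, with the distance from the start in bases on the x axis. Red bars mark heat shock element pairs, found in Fkbp4, Hspa8, Dnaja1 and Stip1, and blue bars mark CCAAT boxes, found in 6 of the 9 genes.

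All 20 probes were measured well above background on all 4 arrays, and testosterone made no detectable difference to any of them. Of the 20 probes, 0 were called higher and 0 lower by limma at an adjusted p under 0.05, as were 0% of the 25914 probes tested in each direction. The adjusted p of each of the 20 rounded to 1.00, as it did for every tested probe. Of the 20, 0 had an unadjusted p under 0.05, which 0.803% of all tested probes had. The smallest 2-sided p that exact permutation of 2 arrays against 2 allows is 0.333, and no such test was run. Signs were even over the probes, at 10 positive and 10 negative, where 47.7% of all tested probes were positive. By the brightest probe of each of the 9 genes, 7 were positive and 2 negative, with a median of 0.017. Over the 20 probes the median difference was -0.0032 and the differences ran from -0.21 to 0.098. All tested probes had a median of -0.0087 and quartiles of -0.10 and 0.10. The 95% intervals reached 0.49 to 0.83 to either side, against a median of 0.64 over all probes. These are bulk RNA measurements, in which fewer cells of a type and less RNA per cell cannot be told apart.

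No chaperone probe had both testosterone arrays above both control arrays, against 6.12% of all tested probes. A single probe, 1 of 20, had both below, against 8.93% of all tested probes. That was the third-brightest Hspa8 probe, described with its gene. No probe was saturated on any array, and none had a saturated pixel, whereas 347 to 365 non-control spots per array were saturated. The brightest Hsp90ab1 probe came nearest, 0.092 below the lowest saturated level of control replicate 2 and 0.15 below that of testosterone replicate 2.

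**Figure D2:**
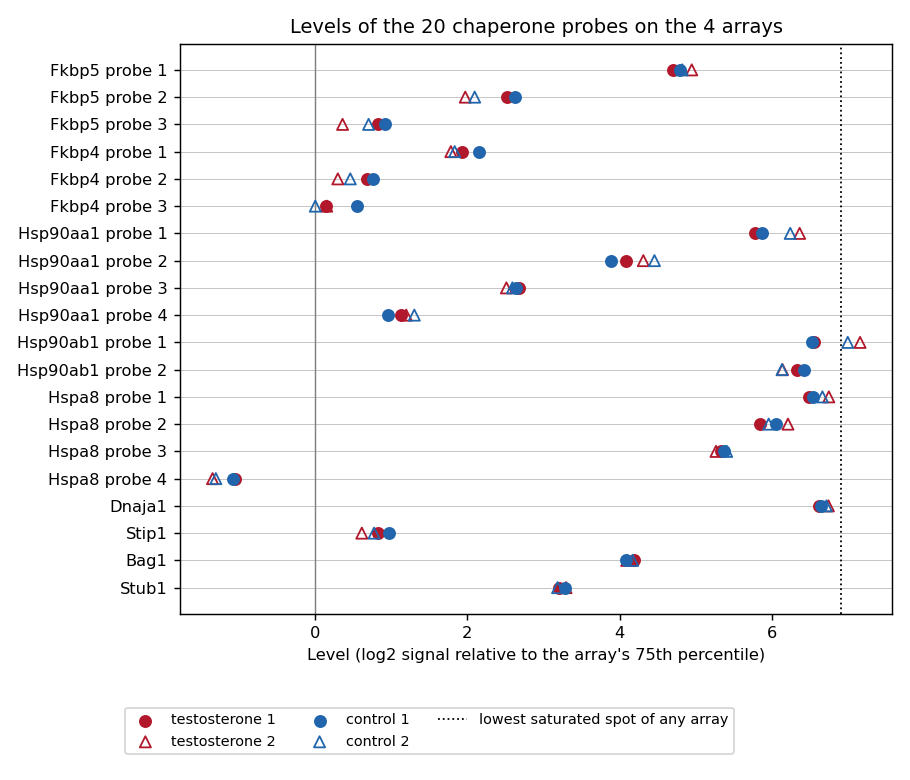
Levels of the 20 probes on the x axis (log2 signal relative to the array's 75th percentile), with testosterone arrays in red and control arrays in blue, circles for replicate 1 and triangles for replicate 2. The dotted line is the lowest saturated level of any array (6.90, on testosterone replicate 1). Red and blue symbols of the same shape lie close together for most probes, and only 1 probe has its groups apart.

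Fkbp5, the immunophilin that lowers hormone affinity in many receptors, had 3 probes (chromosome 20, rn4). The brightest (6637600 to 6637659) stood at 4.69 and 4.94 in the testosterone arrays, against 4.79 and 4.82 in the control arrays. The control levels fell between the testosterone levels, so the groups overlapped. The means were 4.82 ± 0.18 with testosterone and 4.80 ± 0.024 in control (SD, n = 2 each), and the difference of 0.017 had an interval from -0.51 to 0.55. That interval runs from 0.700-fold to 1.46-fold for this probe alone. The interval of the Fkbp5 probe at 6638283 to 6638342 reached 1.65-fold, and that of the probe at 6647361 to 6647420 reached 1.37-fold. Because the power of 2 arrays against 2 is not settled, these limits are not a firm bound on Fkbp5 induction.

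The second Fkbp5 probe (6638283 to 6638342) stood at 2.53 and 1.97 with testosterone and at 2.62 and 2.10 in control. Its replicate 1 arrays were high and its replicate 2 arrays low in both groups, and the difference was -0.11 (-0.94 to 0.72). The third probe (6647361 to 6647420) stood at 0.83 and 0.36 with testosterone and at 0.92 and 0.71 in control, a difference of -0.21 (-0.88 to 0.45), the most negative of the 20. It lay in column 64. Thus the 3 Fkbp5 probes did not share a sign, and the groups overlapped on each of them. The letters TGTTCT did not occur in the printed Fkbp5 promoter on either strand.

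Fkbp4, the immunophilin that favours receptor transport, had 3 probes with like differences (chromosome 4, rn4). The brightest (165450629 to 165450688) stood at 1.93 and 1.78 with testosterone, against 2.15 and 1.83 in control, a difference of -0.14 (-0.71 to 0.44). The next (165451298 to 165451357) stood at 0.68 and 0.30 with testosterone and at 0.76 and 0.46 in control, and differed by -0.12 (-0.76 to 0.52). The last (165448792 to 165448851, in column 70) stood at 0.15 and 0.16 with testosterone and at 0.55 and 0.01 in control, and differed by -0.13 (-0.81 to 0.56). Fkbp4 was the only one of the 5 genes with several probes whose probes all had the same sign. Its groups overlapped on every probe, control replicate 1 was the highest array on each, and without that array the difference of the brightest probe was 0.024.

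Hsp90aa1, the stress-inducible cytosolic HSP90, had 4 probes (chromosome 6, rn4). The brightest (135417971 to 135418030, in column 69) stood at 5.78 and 6.36 with testosterone and at 5.87 and 6.24 in control. Both control levels lay between the testosterone levels, and the difference was 0.017 (-0.76 to 0.79). The second (135415397 to 135415456) stood at 4.08 and 4.31 with testosterone and at 3.89 and 4.46 in control, with the testosterone levels between the control levels and a difference of 0.022 (-0.70 to 0.75). Replicate 2 was the higher array in both groups for both probes.

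The third Hsp90aa1 probe (135415051 to 135415244) stood at 2.68 and 2.51 with testosterone and at 2.65 and 2.59 in control, a difference of -0.022 (-0.53 to 0.48). The fourth (135416521 to 135416580, in column 72) stood at 1.14 and 1.20 with testosterone and at 0.96 and 1.30 in control, and differed by 0.036 (-0.54 to 0.61). The 4 Hsp90aa1 differences thus ran from -0.022 to 0.036, with the groups overlapping on each probe.

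Hsp90ab1, the constitutive cytosolic HSP90, had 2 probes by name (chromosome 9, rn4). The brighter (11036014 to 11036073) stood at 6.55 and 7.15 with testosterone and at 6.52 and 6.99 in control. Its means were 6.85 ± 0.43 with testosterone and 6.75 ± 0.34 in control (SD, n = 2 each), and its difference of 0.098 (-0.74 to 0.93) was the most positive of the 20. Testosterone exceeded control in both replicate numbers, by 0.034 and 0.16, but the gaps between arrays of a group were 0.60 with testosterone and 0.47 in control. The other probe (11038254 to 11038313) stood at 6.33 and 6.14 with testosterone and at 6.42 and 6.13 in control, a difference of -0.041 (-0.61 to 0.53). On that probe replicate 1 was the higher array in both groups, the reverse of the brighter one.

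Hspa8, the constitutive HSP70 whose promoter held the repeat runs shown above, had 4 probes (chromosome 8, rn4). The brightest (43787214 to 43787527) stood at 6.48 and 6.74 with testosterone and at 6.53 and 6.66 in control, with both control levels inside the testosterone range. Its difference was 0.017 (-0.53 to 0.56). The second (43786813 to 43786872, in column 74) stood at 5.84 and 6.21 with testosterone and at 6.05 and 5.95 in control, and differed by 0.020 (-0.57 to 0.61).

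The third Hspa8 probe (43785819 to 43785890) stood at 5.33 and 5.26 with testosterone, against 5.36 and 5.40 in control. Here the groups did not overlap, but the nearest arrays of the groups were 5.33 and 5.36, and the difference of -0.086 (-0.57 to 0.40) did not pass limma. The dimmest (43785276 to 43785451) stood at -1.04 and -1.34 with testosterone and at -1.07 and -1.30 in control, a difference of -0.0073 (-0.59 to 0.58). A further 11 probes carried other names and were described in the files as similar to heat shock protein 8, so that transcripts of near-identical copies could add to these signals. Of those 11, 9 were tested, with differences from -0.058 to 0.25 and 0 called by limma, and 1 was saturated.

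Dnaja1, the J-domain partner that stimulates HSP70 proteins, had 1 probe (chromosome 5, 58110714 to 58111203, rn4). It stood at 6.61 and 6.74 with testosterone and at 6.64 and 6.71 in control. The control levels again lay inside the testosterone range. Its means were 6.68 ± 0.087 with testosterone and 6.68 ± 0.050 in control (SD, n = 2 each). The difference was 0.00087, with an interval from -0.50 to 0.50 that runs from 0.709-fold to 1.41-fold.

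Stip1, the adaptor between HSP70 and HSP90, had 1 probe (chromosome 1, 209693851 to 209694432, rn4; column 73). It stood at 0.83 and 0.62 with testosterone, against 0.97 and 0.78 in control. The difference was -0.15 (-0.69 to 0.40), made up of -0.13 within replicate 1 and -0.16 within replicate 2. Even so testosterone replicate 1 lay above control replicate 2, so the groups overlapped.

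Bag1, the nucleotide exchange factor, had 1 probe (chromosome 5, 58329957 to 58330304, rn4; column 59). It stood at 4.18 and 4.09 with testosterone and at 4.08 and 4.17 in control, a difference of 0.014 (-0.48 to 0.51). Stub1, the ubiquitin ligase, had 1 probe (chromosome 10, 15096677 to 15096822, rn4; column 80). Its levels were 3.20 and 3.30 with testosterone and 3.28 and 3.18 in control, a difference of 0.017 (-0.48 to 0.51). The SDs were 0.066 with testosterone and 0.064 in control for Bag1, 0.067 with testosterone and 0.066 in control for Stub1, and the groups overlapped for both genes.

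**Figure D3:**
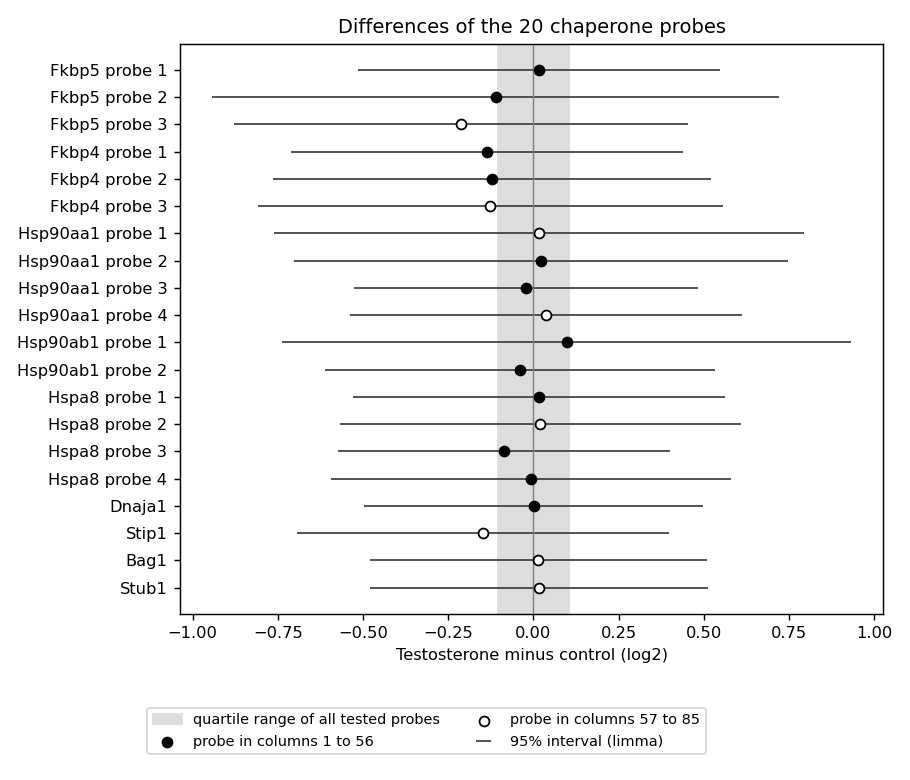
Testosterone minus control (log2, x axis) for the 20 probes, with 95% intervals from limma as horizontal lines. Open symbols are probes in columns 57 to 85, and the grey band is the quartile range of all tested probes, from -0.10 to 0.10. Every interval includes 0, and the differences run from -0.21 to 0.098.

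Gaps between arrays of a group were large beside the testosterone differences, for the chaperone probes as for most tested probes. For 19 of the 20 probes the larger gap within a group exceeded the testosterone difference, as it did for 91.5% of all tested probes. This sets the larger gap between single arrays against a difference of means, which favours the gap, and is not particular to the chaperones. That larger gap ran from 0.069 to 0.60 with a median of 0.31, beside a median of 0.42 over all tested probes. The gap had the same sign in both groups for 15 of the 20 probes and for 71.6% of all tested probes. The brightest Hsp90aa1 and Hsp90ab1 probes were higher on the replicate 2 arrays by 0.58 and 0.60 with testosterone and by 0.37 and 0.47 in control. The second Fkbp5 probe was lower on them, with gaps of -0.55 and -0.53. Probes of 1 gene could point opposite ways, as for Fkbp5 and Hsp90ab1, so these gaps were not shared by all probes of a gene.

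**Figure D4:**
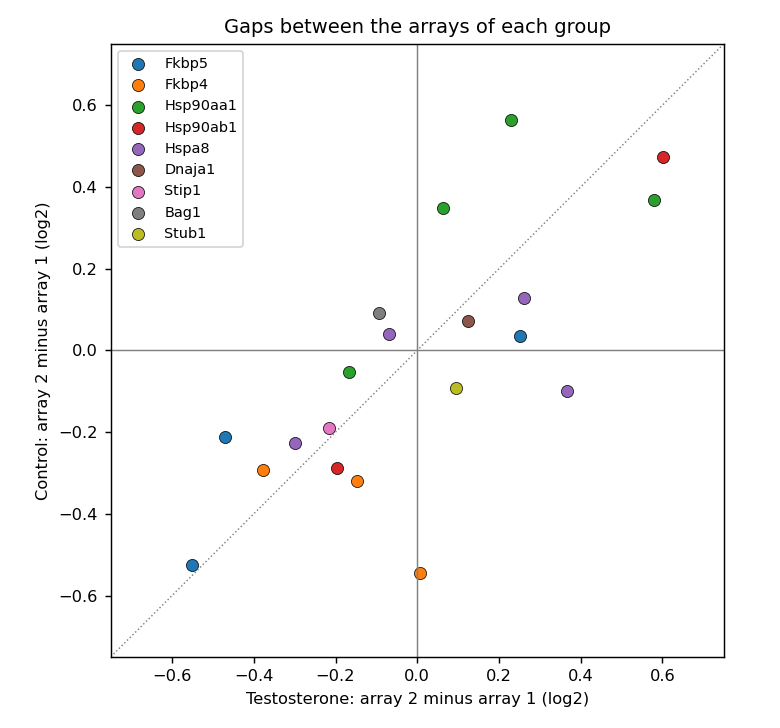
Gap between the 2 arrays of a group (replicate 2 minus replicate 1, log2), with the testosterone group on the x axis and the control group on the y axis, for the 20 probes coloured by gene. The dotted line marks equal gaps. In 15 of 20 probes the gap has the same sign in both groups, and the gaps reach 0.60.

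Within replicate 1 the testosterone array was higher than the control array for 6 of the 20 probes and within replicate 2 for 9, and 7 probes had the same sign in both. Among the 12 probes outside columns 57 to 85, 5 were positive and 7 negative, with a median of -0.014. Control replicate 1 was the lowest array for 4 of the 20 probes.

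The rest of the chaperone network was read from 7 lists of 150 genes, of which 138 had a probe and 128 were tested, each by its brightest probe. None was called by limma, and 0 had an unadjusted p under 0.05. Of the 128, 43 were positive and 85 negative, with a median of -0.039, and 33.6% positive compares with 47.7% of all tested probes. Scaling to the array median shifts every probe alike by -0.066 and gave 20 positive and 108 negative, or 15.6% positive against 31.7% of all tested probes under that scaling. Both testosterone arrays lay below both control arrays for 17 (13.3%, against 8.93% of all tested probes) and above for 1 (0.781%, against 6.12%). The gene above was Dnajb4, whose probe had 10 dropped spots of control replicate 1 nearby. By list, the positive and negative counts were 8 and 19 for other HSP90 cochaperones and paralogs, 4 and 14 for the HSP70 family and its regulators, 12 and 16 for J-domain proteins, and 7 and 17 for other FK506-binding proteins and cyclophilins. They were 9 and 11 for heat shock factors, small heat shock proteins and chaperonins, and 1 and 6 for the ubiquitin partners of Stub1.

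Among other HSP90 partners, Ppp5c, a phosphatase that docks on HSP90 as the immunophilins do, stood at -0.15 and -0.43 with testosterone and at 0.24 and -0.13 in control, a difference of -0.35 (-0.98 to 0.28). Sgtb, a glutamine-rich cochaperone, differed by -0.52 (-1.17 to 0.13), and Unc45a, a myosin chaperone, by -0.18 (-0.72 to 0.36). In the HSP70 list Hspa1a, the inducible HSP70, differed by -0.16 (-0.67 to 0.35), and Hspa9 and Hyou1 by -0.093 and -0.092. The heat shock factors Hsf1 and Hsf2 differed by -0.016 (-0.53 to 0.50) and -0.040 (-0.52 to 0.44), and the small heat shock protein Hspb6 by -0.37 (-0.91 to 0.17). Apart from Hsf1 and Hsf2, the genes above were picked by value. They were the most negative of their lists among genes with non-overlapping groups that were detected on every array and never saturated. Largest in the other direction were Dnajb4 at 2.68 and Fkbp10 at 1.48, also chosen after their values were seen. Their probes lay in columns 83 and 81 with 10 and 7 dropped spots nearby, and read -5.71 and -2.29 on control replicate 1 against -0.89 and 1.20 on control replicate 2.

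Client receptors were measured beside their chaperones. Nr3c1, the glucocorticoid receptor, stood at 3.13 and 3.54 with testosterone and at 3.14 and 3.51 in control, and differed by 0.012 (-0.68 to 0.70). Nr3c2 and Pgr differed by -0.053 (-0.59 to 0.48) and 0.18 (-0.55 to 0.91). Esr1, Esr2 and Ahr were not well above background on any array. The groups overlapped for Nr3c1, Nr3c2 and Pgr.

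**Figure D5:**
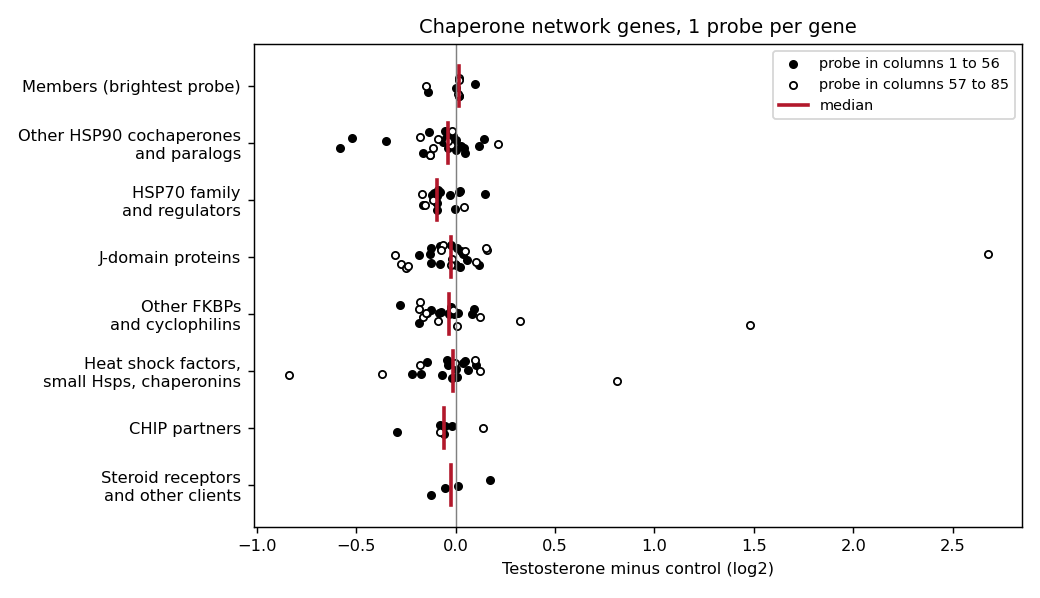
Testosterone minus control (log2, x axis) for the brightest probe of each member and of each tested gene of the 7 network lists, with 1 point per gene and the median of each list as a red line. Open symbols are probes in columns 57 to 85. Medians lie between -0.092 and 0.017, and the 2 points beyond 1 are Dnajb4 and Fkbp10.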

How the data were processed

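Total RNA was labelled with Cy3 and hybridised to 4 one-colour Agilent 4x44k rat arrays. Deposited scanner output holds a processed and a mean intensity per spot, its local background, and flags for detection, saturation and outliers. Per the file headers they were written by Feature Extraction 11.5.1.1, while version 10.5 is named in the submitters' processing notes. Probe positions are on rn4, per the file headers. The deposited series table holds the authors' log2 values, equal to the log2 processed signal minus 8.79, 8.38, 8.63 and 8.55 (testosterone 1 and 2, control 1 and 2). Column medians were -3.61, -3.34, -3.62 and -3.45, so scale, centring and direction were known.

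Here log2 processed signals were set relative to each array's 75th percentile. Outlier-flagged and control spots were dropped, and spots of a probe averaged. Probes well above background on both arrays of a group entered a fit by limma (version 3.58.1, R version 4.3.3, no covariate, Benjamini-Hochberg). The fit was tested on simulated data with 2 models of the spread: mean estimates were close to the true sizes in both, but large changes were called in 1 model, with more false calls than the threshold allows, and none in the other, so the power of 2 arrays against 2 is not settled and a lack of calls is weak evidence. Names came from the GRCr8 gene table (10845 probes by accession, 5191 by symbol, 3464 by older symbol), and 21512 kept the file's name. Exon and UTR positions on rn4 were not annotated here. Members, lists and the named-gene rule (every member probe, and up to 3 genes per direction and list, with non-overlapping groups, detected on every array and never saturated) were chosen with earlier results of these data known. Not every gene of the rule is given, and 1 gene of the lists is not reported here. All arrays shared 1 slide, so no batch could be tested. Alternatives covered normalization, filter, scaling, the authors' table, the replicate block, each array left out, the damaged columns and the probe chosen.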

Additional observations from a re-analysis of the deposited data

How the results depend on the processing

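With all 4 arrays kept, limma called 0 probes under every alternative, and 0 member probes under any, arrays left out included. Without control replicate 2, 48 probes were called higher and 3 lower over all probes, so leaving out 1 array gave 0 to 48 and 0 to 3 (a single array was taken to vary as the other group does). The labels do not say that replicate numbers mark a shared culture, so arrays were not treated as paired. Deviations of same-numbered arrays correlated at 0.473 across probes, and with the replicate block 740 probes had an unadjusted p under 0.05, against 208 without it, with 0 called in both and 0 member probes among the 740. Other such counts were 36 with normexp and quantile normalization, 711 with no detection filter, 87 with detection on all 4 arrays and 112 without columns 57 to 85, which leaves no probe for Bag1, Stip1 or Stub1. With 1 array left out they were 924 without testosterone replicate 1, 707 without testosterone replicate 2, 289 without control replicate 1 and 831 without control replicate 2.

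Member differences near 0 changed sign while uncalled. Median scaling shifts every tested probe by the same -0.066, which alone gave -0.052 for Bag1, -0.065 for Dnaja1, -0.050 for Fkbp5, -0.050 for Hsp90aa1, -0.049 for Hspa8 and -0.049 for Stub1. Normexp gave -0.018 for Fkbp5 and -0.015 for Stub1, the authors' table -0.0064 for Dnaja1, and the mean over probes -0.10 for Fkbp5 and -0.014 for Hspa8. Leaving out 1 array gave -0.032 to 0.061 for Bag1, -0.061 to 0.063 for Dnaja1, -0.30 to 0.024 for Fkbp4, -0.11 to 0.14 for Fkbp5, -0.27 to 0.31 for Hsp90aa1, -0.20 to 0.40 for Hsp90ab1, -0.11 to 0.15 for Hspa8 and -0.031 to 0.064 for Stub1. Only Stip1 kept its sign in every setting that gave it a value (-0.26 to -0.040 with 1 array left out). By brightest probe, 0 members had groups apart. Normexp gave 1 above and 1 below (1517 and 2733 of all 25914 tested probes), and median scaling 1 below (12.2%). Leaving out 1 array gave 1 to 6 above (6 without testosterone replicate 1, when 42.6% of all tested probes were above). It gave 0 to 4 below (4 without testosterone replicate 2, when 38% were below). Fewer arrays separate more easily. The shift of median scaling left 20 positive network genes. The cause of the sign changes under normexp was not tested.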

Other observations

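Probes that carry no member name but are described in the files as HSP90-beta numbered 6, of which 5 were tested. Their differences, 3 above 0 and 2 below, ran from -0.17 to 0.33, and 0 were called by limma (0 of the 5 had groups apart). The widest gap between arrays of a group among them was that of BG153357. It stood at 0.18 and 1.60 with testosterone and at 0.11 and 1.02 in control. BG153357 lay beside the Hsp90ab1 probes on chromosome 9, but on the opposite strand (11038492 to 11038663, rn4). ENSRNOT00000026920 (11037679 to 11037738) lay between the Hsp90ab1 probes on their strand. It differed by -0.17 (-1.12 to 0.79), with 3 dropped spots of control replicate 1 nearby. A probe described as similar to stress-induced phosphoprotein 1, named LOC691340, differed by -0.029. Another described as similar to heat shock protein 8, named LOC310891, had its groups apart, at 2.41 and 2.32 with testosterone and 2.00 and 2.23 in control, a difference of 0.25 (-0.28 to 0.78) that limma did not call. LOC310891 is the mean of 10 spots, and control replicate 1 was its lowest array. The spot with the most damage around it had 41 dropped spots of control replicate 1 within 10 rows and columns. The part of that damage in the difference of LOC310891 was not tested. The probes named in this section were chosen after their values were seen.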
